A study of Saccharomyces cerevisiae with 18 samples.

Results

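The yeast strains nup60-K467N-GFP and nup60-K467R-GFP carry opposite replacements of lysine 467 in the nucleoporin Nup60, and their poly(A) RNA was compared gene by gene in 12 of the 18 libraries of the study. The members are all 6 K467N libraries and all 6 K467R libraries, taken by their labels, and no measured value was used to choose them. All 5660 genes with enough reads for a test entered the comparison, of 7036 features counted. The remaining 6 libraries come from the GFP-tagged wild type, called WT, and served as a reference level and for the estimate of spread.

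Nup60 belongs to the nuclear basket, the set of filaments on the nucleoplasmic face of the nuclear pore complex, where it helps to hold Nup2 and the Mlp proteins and takes part in mRNA export. Acetylation removes the positive charge of a lysine side chain. Asparagine is uncharged and is used as a stand-in for the acetylated residue, whereas arginine keeps the charge and cannot be acetylated as lysine is, so the 2 mutants are mimics of the opposite states. In budding yeast the acetyltransferase Esa1, the catalytic subunit of NuA4, acetylates Nup60, and the deacetylase Hos3 acts at pores of the daughter cell and delays Start, the commitment to a new cell cycle.

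All 3 strains are of the S288C background, and in all of them NUP60 carries a C-terminal GFP tag. The WT and K467N strains bear the selectable marker HIS3 of Saccharomyces kluyveri, and the K467R strain bears HIS3MX6. The marker and the residue therefore change together, and their effects cannot be told apart. Cells were asynchronous and grew at 25 °C in rich YP medium with 2% glucose plus adenine. Cultures were started at OD 0.1 and harvested at OD 0.6 to 0.7. The labels leave unsaid whether the replicates are independent cultures or clones, so p-values measure only the spread between these libraries, which may be technical.

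The substituted codon is shown because it is the designed difference between the strains. In the R64 reference genome the gene NUP60 (YAR002W) lies on the plus strand, and the window chrI:153634-153678 is inside its coding sequence of 1620 bases. Capitals mark codon 467, AAA, a lysine codon, at positions 153655 to 153657.
NUP60 codon 467 with flanks: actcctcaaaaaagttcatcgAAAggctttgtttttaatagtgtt
Counts per gene hold no bases, so neither substitution could be read from the deposited values.

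The 12 mutant libraries were of similar depth, with 14061184 to 17111951 reads assigned to genes in K467N and 12910660 to 15492932 in K467R. Both mutant strains looked like mating type a by their 2 pheromone receptor genes. STE2, the alpha-factor receptor of a cells, ranged from 326 to 544 CPM in their libraries. STE3, the a-factor receptor of alpha cells, had a median of 0.642 CPM in K467N and 0.484 in K467R. CPM here means read counts scaled to a common library size, after correction by TMM, the trimmed mean of M-values. Summed, the 7 a-specific genes held 0.126 to 0.142% of the TMM-scaled library size in K467N and 0.122 to 0.133% in K467R. The 3 tested alpha-specific genes held 0.00520 to 0.00586% in K467N and 0.00481 to 0.00578% in K467R. STE3 was a small part of that sum, and levels of its other members are not given here. Libraries are numbered 1 to 6 within a strain, and K467N 2 and K467R 1 stood apart from the others of their strain, and medians that move with them are given with and without them. Without HIS3, the leading principal component of the 12 libraries held 47.2% of the variance and placed K467N 2 at -15.5 and K467R 1 at 19.0. These were its opposite ends, so leaving out both reduces strain differences that follow this component by construction. Only 14.0% of the variance of all genes other than HIS3 lay between the strains.

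HIS3 was the one gene whose mRNA count differed between the 2 mutant strains past the test, and reads counted to it were almost absent from K467R. These strains also carry different selectable markers, and whether the marker or the residue gave this difference was not tested. Whether the marker of K467R supplies the function of HIS3 was not tested either, since the count covers only reads assigned to HIS3. HIS3 (YOR202W, chromosome XV) encodes imidazoleglycerol-phosphate dehydratase of histidine synthesis. It passed in K467N minus K467R with an adjusted p of 2.06e-21 by edgeR's quasi-likelihood test with Benjamini-Hochberg adjustment. No gene was lower in K467N past the same test. The called share was therefore 0.0177% of genes for higher in K467N and 0% for lower in K467N, with a threshold of 0.05.

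HIS3 reads in the K467N libraries numbered 1237, 1154, 1159, 1293, 1320 and 1231, from library 1 to library 6. In the K467R libraries they numbered 1, 0, 0, 0, 0 and 0. Every K467N library lay far above every K467R library. On the CPM scale K467N ranged from 71.8 to 87.2 with a median of 80.3, and the 6 WT libraries ranged from 78.5 to 95.8 with a median of 84.5, so K467N and WT overlapped. Summed over 6 libraries the counts were 7394 in K467N and 1 in K467R, a ratio of 6767 after scaling for library size with an exact 95% counting interval from 1214 to 267306. The interval covers counting error only. A count of 3 in a single K467R library would correspond to 0.193 to 0.238 CPM, the floor below which a level was not detectable. Whether the HIS3 reads in WT and K467N came from the S. cerevisiae gene or from the related S. kluyveri marker was not tested, since counts per gene do not separate them.

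**Figure D1:**
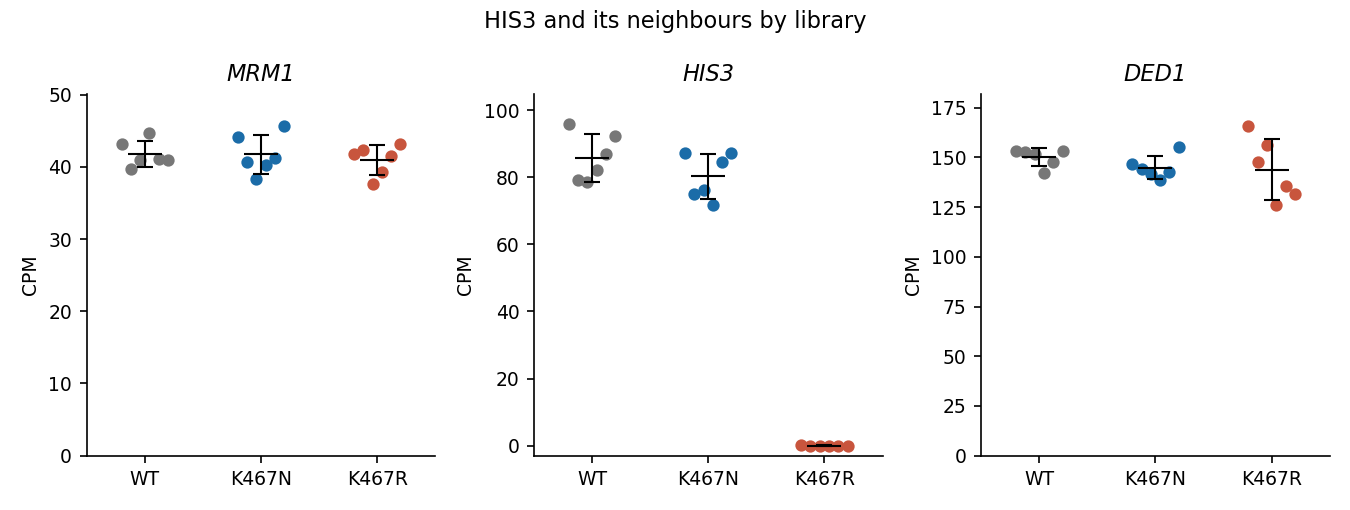
Levels of HIS3 and its chromosome neighbours MRM1 and DED1 by library on the CPM scale, with 6 libraries per strain. Bars show the mean and SD. HIS3 lies between 71.8 and 87.2 CPM in K467N and at no more than 0.071 CPM in K467R, while MRM1 and DED1 overlap between the strains.

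Neither gene beside HIS3 on the chromosome passed the test. MRM1, a methyltransferase of mitochondrial ribosomal RNA, ranged from 38.4 to 45.6 CPM in K467N with a median of 41.0 and from 37.7 to 43.2 in K467R with a median of 41.7. Its log2 difference was 0.03 ± 0.05 (SE), with a 95% interval from -0.08 to 0.13. DED1, an RNA helicase of translation initiation, ranged from 139 to 155 CPM in K467N and from 126 to 166 in K467R, and its log2 difference was 0.01 ± 0.05. The groups overlapped for both neighbours. The other 6 tested genes of histidine synthesis had log2 differences from -0.16 for HIS4 to -0.03 for HIS7, and none of them passed.

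NUP60 itself did not pass the test between the mutants, and its interval was narrow. Its CPM ranged from 82.6 to 90.8 in K467N (median 87.9) and from 84.8 to 94.3 in K467R (median 87.9), beside 77.0 to 93.0 in WT. The 3 strains overlapped. The log2 difference between the mutants was -0.02 ± 0.05, with a 95% interval from -0.13 to 0.08. Among the other 4 basket genes the log2 differences were 0.02 ± 0.05 for NUP1, 0.00 ± 0.04 for NUP2, 0.05 ± 0.07 for MLP1 and 0.03 ± 0.09 for MLP2. NUP1 and NUP2 encode FG nucleoporins of the basket, and MLP1 and MLP2 its filament proteins.

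None of the other genes of nuclear transport passed the test. Of 29 other nucleoporin genes tested, 17 were above 0 and the median log2 difference was 0.04, beside 2970 of 5660 genes (52.5%) above 0 and a median of 0.01 over all genes. The nucleoporin median was 0.01 without K467N 2 and 0.00 without both K467R 1 and K467N 2. The 2 with the smallest p were DYN2, a dynein light chain that is also a nucleoporin, at -0.29 ± 0.09, and NUP42, an FG nucleoporin of the cytoplasmic face, at -0.15 ± 0.06. Among 23 karyopherin and Ran-cycle genes 16 were above 0, with a median of 0.06 that was 0.02 without K467N 2 and 0.01 without both libraries, and the leading members were MOG1, a Ran-binding import factor, at -0.24 ± 0.09 (-0.12 without both) and YRB2, a Ran-binding export factor, at -0.13 ± 0.06. The 21 genes of TREX-2, THO and mRNA export, the machinery that hands mRNA to the basket, had 9 above 0 and a median of -0.01, or 0.01 without both. THP2, a THO subunit, had a log2 difference of -0.15 ± 0.07, and NPL3, an mRNA-binding export adaptor, of -0.12 ± 0.06.

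The enzymes that place and remove acetyl groups showed no called gene. ESA1 had a log2 difference of 0.15 ± 0.05, and EAF5, another NuA4 subunit, of -0.13 ± 0.06. The 13 NuA4 genes had a median of -0.02 and the 17 SAGA genes a median of 0.01. HOS3 ranged from 64.5 to 71.4 CPM in K467N with a median of 68.8 and from 56.9 to 68.6 in K467R with a median of 66.8, which overlapped, and its log2 difference was 0.07 ± 0.05. Of 12 lysine deacetylase genes 9 were above 0, with a median of 0.06 that was 0.03 without K467R 1 and K467N 2.

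Genes of Start and of the later cell cycle were tested for their mRNA level, which in asynchronous cells also carries the share of cells in each phase. CLN3, the upstream G1 cyclin, ranged from 79.6 to 101 CPM in K467N (median 85.6) and from 72.0 to 84.8 in K467R (median 76.0), and its log2 difference was 0.18 ± 0.07. CLN1, a G1 cyclin of Start, ranged from 106 to 123 CPM in K467N (median 113) and from 90.5 to 112 in K467R (median 103), with a log2 difference of 0.14 ± 0.05. CLN2, its close relative, ranged from 148 to 163 CPM in K467N (median 159) and from 143 to 160 in K467R (median 152), with a log2 difference of 0.05 ± 0.04 and a 95% interval from -0.03 to 0.13. The groups overlapped for all 3 cyclins, and none passed. Without K467R 1 and K467N 2 the differences were 0.12 for CLN3, 0.08 for CLN1 and 0.03 for CLN2. WHI5, the inhibitor of Start, was at -0.02 ± 0.12.

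Over the 13 Start regulators the median log2 difference was 0.01, or 0.03 without K467R 1 and K467N 2, with 7 above 0. The 44 targets of SBF and MBF, the transcription factors of Start, had 29 above 0 and a median of 0.03, or 0.01 without the same libraries. PCL1, a G1 cyclin of the Pho85 kinase, was at -0.16 ± 0.07, and RFA3, a subunit of replication protein A, at -0.19 ± 0.07. In the CLB2 cluster of G2 and mitosis 14 of 16 genes were above 0 with a median of 0.07, and without K467R 1 and K467N 2 the median was 0.04. CLB2, the main mitotic cyclin, was at 0.17 ± 0.06 and SWI5, a transcription factor of mitotic exit, at 0.11 ± 0.05. None of the 8 core histone genes was above 0, with a median of -0.12 that was -0.05 without the same libraries. With the trend of levels with coding length removed, the median was -0.002 for histones and 0.02 for the CLB2 cluster. HHF1 and HHF2, which encode histone H4 and are near-identical copies whose reads may be split, were each at -0.20 ± 0.08, and without those libraries at -0.10 and -0.11.

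**Figure D2:**
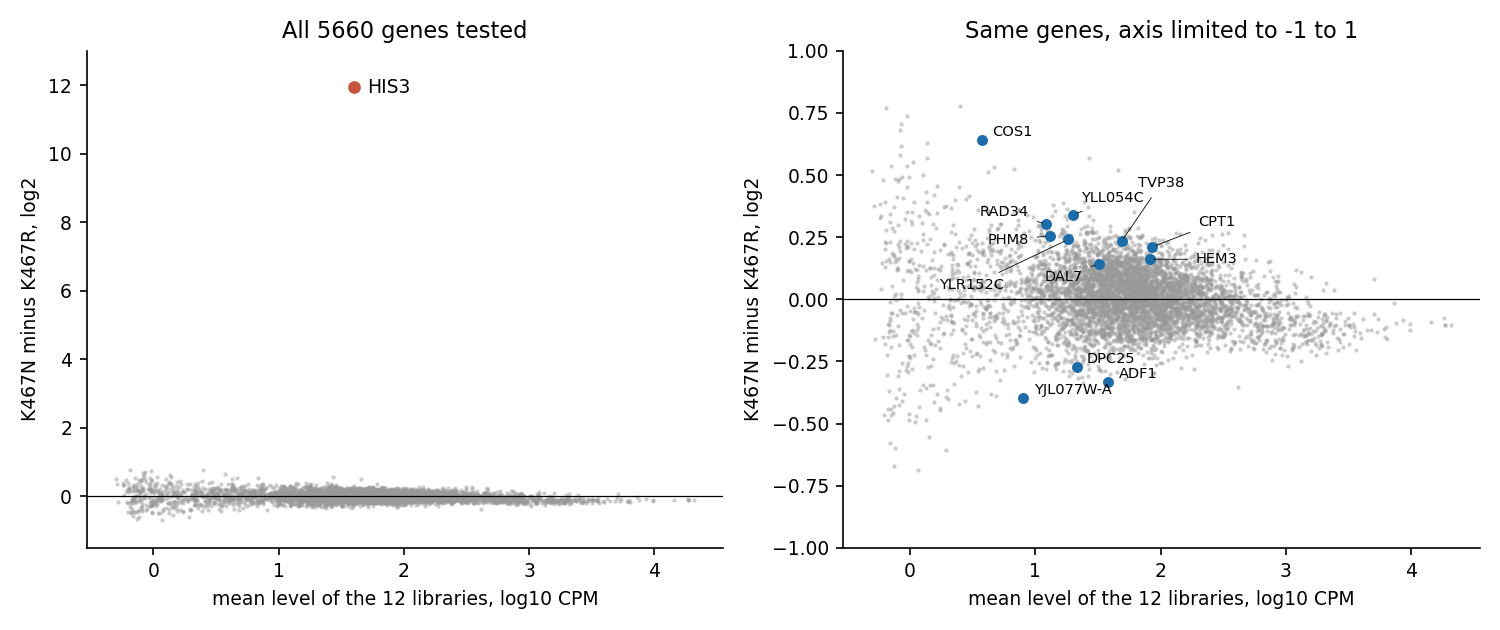
Log2 difference between K467N and K467R against the mean level of the 12 libraries (log10 CPM) for 5660 genes, in full on the left and limited to -1 to 1 on the right. HIS3 stands alone on the left, at a fitted value that depends on the prior count because 5 K467R libraries had no read. Blue points on the right are the 12 genes of next smallest p, none of which passed.

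The genes next in order after HIS3 had small differences and did not pass. First among them was COS1, a member of a family of endosomal membrane proteins that help sort cell-surface proteins for degradation. It ranged from 3.67 to 5.55 CPM in K467N (median 4.60), from 2.53 to 3.49 in K467R (median 2.93) and from 3.46 to 5.19 in WT (median 4.17). Every K467N library lay above every K467R library, and K467N overlapped WT. The log2 difference was 0.64 ± 0.13, with an unadjusted p of 6.6e-05 and an adjusted p of 0.187 by edgeR's quasi-likelihood test. Its lowest adjusted p over the alternatives was 0.0634, by DESeq2, and its highest was 0.999. COS1 has near-identical copies in the genome, so its count is uncertain.

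The remaining 11 genes of smallest p each had an adjusted p of 0.408 by the same edgeR test. HEM3, porphobilinogen deaminase of heme synthesis, ranged from 84.6 to 88.3 CPM in K467N (median 86.3) and from 73.1 to 83.5 in K467R (median 77.0), with no overlap, beside 81.8 to 89.8 in WT. Its log2 difference was 0.16 ± 0.04. PHM8, a phosphatase induced by phosphate starvation, ranged from 13.2 to 15.7 CPM in K467N (median 13.9) and from 11.1 to 12.5 in K467R (median 11.9), also with no overlap. All 6 K467R libraries were below the lowest WT library, whose group ranged from 13.8 to 16.5 CPM. The log2 difference of PHM8 between the mutants was 0.26 ± 0.06.

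DAL7, malate synthase of allantoin breakdown, ranged from 33.0 to 34.3 CPM in K467N and from 29.2 to 31.2 in K467R without overlap, a log2 difference of 0.14 ± 0.04. Also higher in mean in K467N were TVP38, a late Golgi vesicle protein, at 0.23 ± 0.06, and the putative transcription factor gene YLL054C at 0.34 ± 0.09. YLR152C was at 0.24 ± 0.07, RAD34, a factor of nucleotide excision repair, at 0.30 ± 0.08, and CPT1, cholinephosphotransferase, at 0.21 ± 0.06. The 3 with the opposite sign were YJL077W-A at -0.40 ± 0.10, ADF1 at -0.33 ± 0.09 and DPC25 at -0.27 ± 0.08. YJL077W-A and ADF1 overlap other annotated genes, and whether counting used strand is not given in the sources used here. Without K467R 1 and K467N 2 the differences of these 3 were -0.30, -0.20 and -0.17, and those of YLL054C and CPT1 were 0.22 and 0.14. YJL077W-A was at -0.14 after the trend with coding length was removed.

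Complete separation of the 2 mutants was rare. The 6 libraries of each did not overlap for 16 genes (0.283% of those tested), 13 with K467N higher (0.23%) and 3 with K467N lower (0.053%). How many genes would separate if none differed was not computed. The first group held HIS3, COS1, HEM3, PHM8, YLR152C and DAL7. These genes had the smallest p in the same libraries, so their separation is no separate evidence. The first group also held ADE2 of purine synthesis, at 0.14 ± 0.06, which is named here after its values were seen. The second group was SNF5, a subunit of the SWI/SNF chromatin remodeller, MNC1 and CMC1, a mitochondrial copper-binding protein, also named after their values were seen.

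AAD3, RDS1 and ADH7, at the right end of chromosome III, and COS12 are genes near chromosome ends. They were named because they differed from WT in earlier results of these data. Their means were higher in K467N than in K467R, but none passed. Over the 4 genes the median log2 difference between the mutants was 0.39. Against WT it was 1.65 for K467N and 1.22 for K467R. AAD3, a putative aryl-alcohol dehydrogenase, ranged from 10.6 to 14.6 CPM in K467N (median 11.7) and from 8.49 to 11.0 in K467R (median 10.6), beside a median of 3.77 in WT. The mutant groups overlapped, with 5 of 6 K467N libraries above all K467R libraries. Its log2 difference between the mutants was 0.26 ± 0.08, with a 95% interval from 0.09 to 0.44 and an adjusted p of 0.408 by edgeR's quasi-likelihood test.

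RDS1, a zinc cluster transcription factor, ranged from 13.6 to 22.7 CPM in K467N (median 14.8) and from 10.0 to 15.5 in K467R (median 12.7). These ranges overlapped, and the log2 difference was 0.36 ± 0.12, or 0.18 without K467R 1 and K467N 2. ADH7, an alcohol dehydrogenase, ranged from 1.24 to 2.62 CPM in K467N and from 0.922 to 1.86 in K467R, with a log2 difference of 0.42 ± 0.21 whose 95% interval ran from -0.01 to 0.85. COS12 ranged from 4.75 to 7.68 CPM in K467N (median 5.13) and from 1.99 to 5.54 in K467R (median 3.77). Its log2 difference was 0.53 ± 0.21, or 0.28 without K467R 1 and K467N 2, and the adjusted p by edgeR was 0.408 for each of the 3.

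The COS family pointed one way in the level of its members, yet no member passed. Of its 12 genes 8 could be tested, and all 8 were above 0 with a median log2 difference of 0.26. The median was 0.17 without K467R 1 and K467N 2 and lay between 0.18 and 0.31 when single libraries were left out. Unadjusted p was under 0.05 with K467N higher for 4 of the 8, beside 5.37% of all genes tested. COS10 ranged from 10.3 to 13.7 CPM in K467N (median 11.3) and from 8.73 to 10.4 in K467R (median 9.43), overlapping only at the edge, with a log2 difference of 0.29 ± 0.11. COS111 was at 0.30 ± 0.11, COS5 at 0.22 ± 0.14 and COS8 at 0.14 ± 0.12, and the smallest values were 0.10 ± 0.09 for COS6 and 0.10 ± 0.07 for COS9. COS12 is counted both here and among the genes near chromosome ends.

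**Figure D3:**
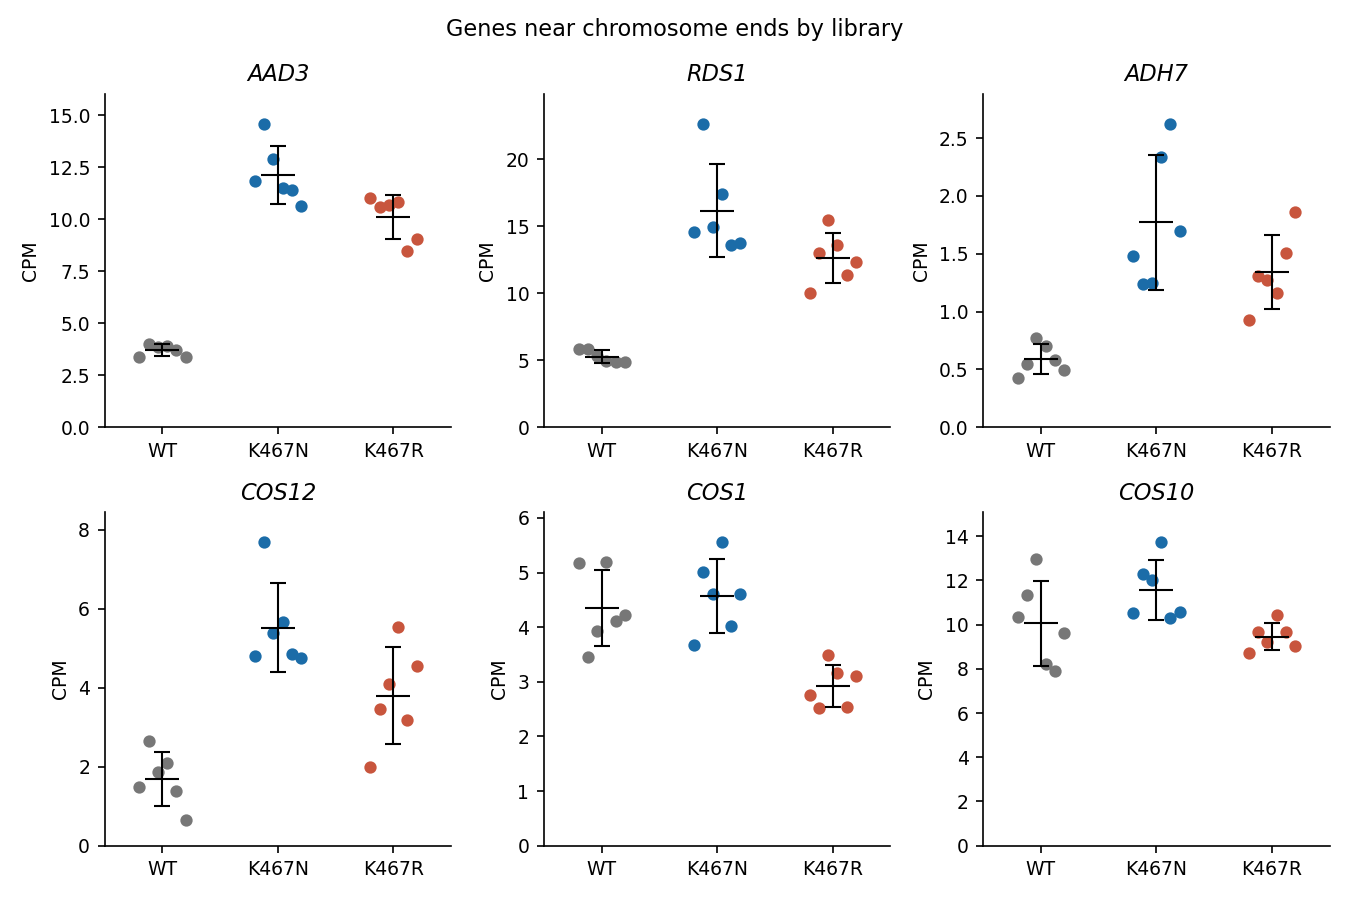
Levels of AAD3, RDS1, ADH7, COS12, COS1 and COS10 by library on the CPM scale, 6 libraries per strain, with mean and SD. K467N and K467R overlap for every gene shown except COS1, where K467N starts at 3.67 CPM and K467R ends at 3.49 CPM.

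Genes that act at telomeres and in silencing, tested beside these, had 14 of 16 above 0 and a median of 0.05. The median was 0.002 with the coding-length trend removed and 0.01 without K467R 1 and K467N 2. STN1, a telomere-capping protein, was at 0.27 ± 0.10, or 0.14 without them. The PAU family of cell-wall proteins, also located near chromosome ends, had only 4 of 24 members tested, with a median of -0.13 and 1 above 0. The PAU median was 0.03 with the coding-length trend removed.

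Genes of growth had slightly lower levels in K467N, without any call, and the difference moved with the libraries that stood apart. Of 138 cytosolic ribosomal protein genes tested, 1 was above 0 and 137 were below it, with a median log2 difference of -0.14 and a range from -0.35 to 0.01. Unadjusted p was under 0.05 with K467N lower for 29 of them, beside 5.85% of all genes tested. Near-identical copies exist for 38 of the 138 genes, whose counts are lowered where reads map to more than 1 place. RPS9A, a protein of the small subunit, ranged from 208 to 254 CPM in K467N (median 232) and from 243 to 293 in K467R (median 261), overlapping, with a log2 difference of -0.20 ± 0.06. RPL39, a protein of the large subunit, was at -0.27 ± 0.11, or -0.15 without K467R 1 and K467N 2.

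The CPM of ribosomal protein genes was summed and taken as a percentage of the TMM-scaled library size, which is not the share of raw counts. It was 18.7 to 24.6% in K467N (median 22.8%) and 21.9 to 27.5% in K467R (median 24.5%). The groups overlapped, K467N 2 was the lowest library and K467R 1 the highest. Relative to the mean of the 12 mutant libraries, the median ribosomal protein gene was at -0.32 on the log2 scale in K467N 2 and at 0.28 in K467R 1. Without both libraries the median difference between the mutants was -0.05. When single libraries were left out it ran from -0.18, without K467N 5, to -0.10, without K467N 2.

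Levels by gene length moved with the same libraries. Among genes with 78 to 750 bases of coding sequence the median difference was -0.10, and among those with 1920 to 14733 bases it was 0.08. Without K467R 1 and K467N 2 these medians were -0.04 and 0.02. In K467N 2 the short class was at -0.21 and the long class at 0.20, relative to the mean of the 12 mutant libraries. In K467R 1 they were at 0.15 and -0.14. Removal of the coding-length trend left a median of -0.04 for ribosomal protein genes. The part of length or of RNA quality in these results was not tested further.

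**Figure D4:**
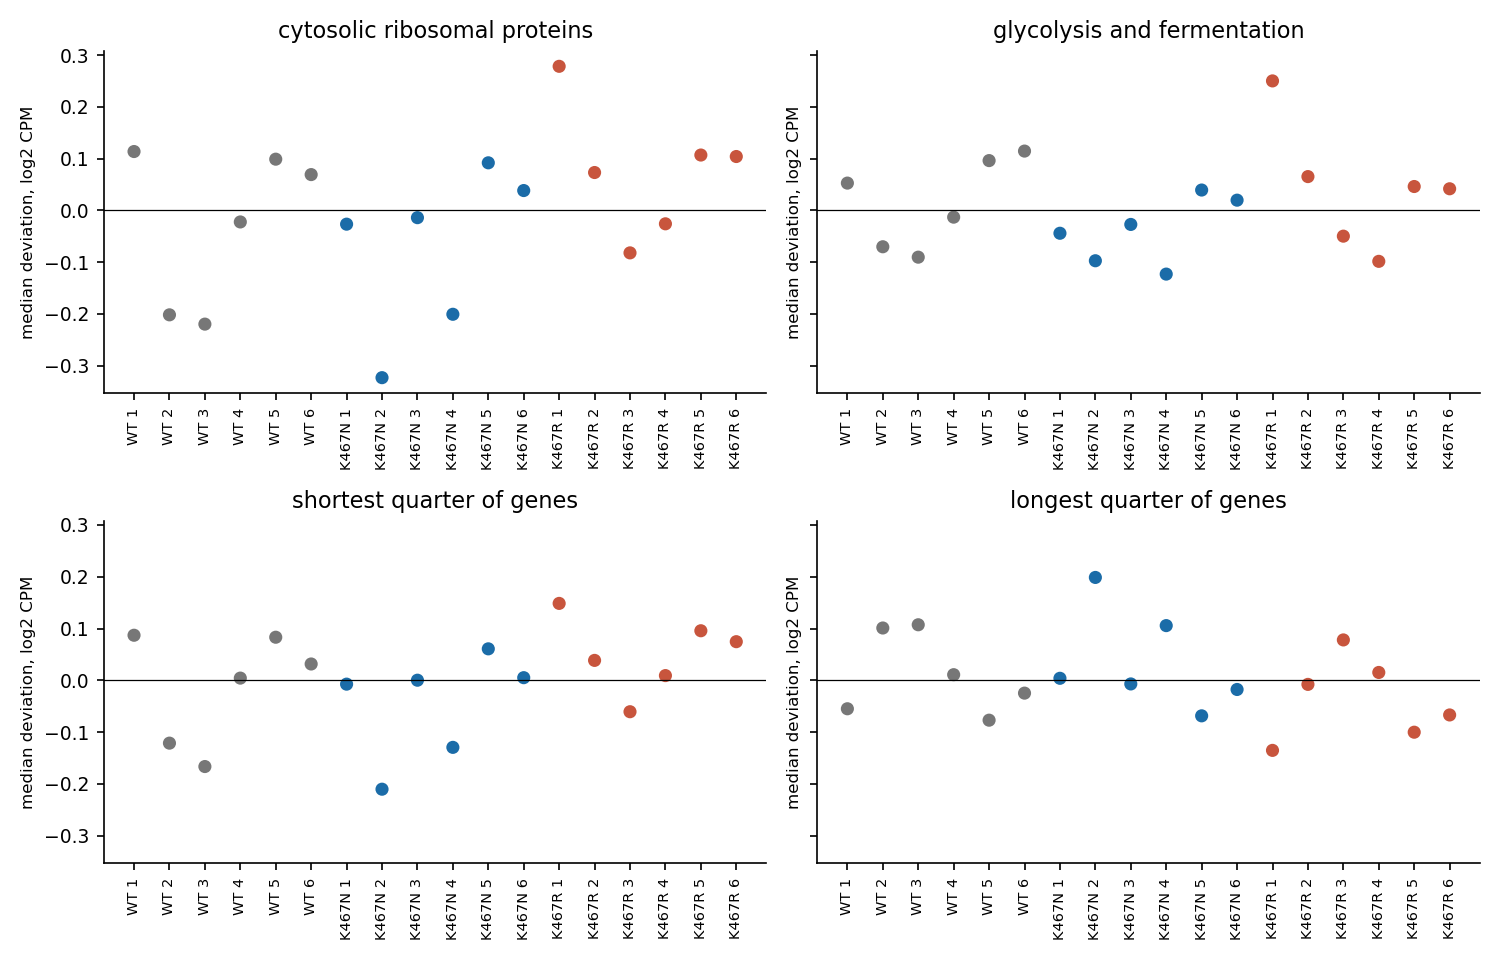
Median deviation of cytosolic ribosomal protein genes, of glycolysis and fermentation genes, and of the shortest and longest genes in each of the 18 libraries. Values are in log2 CPM relative to the mean of the 12 mutant libraries. K467N 2 is lowest for ribosomal protein genes at -0.32 and K467R 1 highest at 0.28, and short and long genes deviate in opposite directions in both.

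Other genes of growth and energy gave like small values. The 67 mitochondrial ribosomal protein genes had a median of -0.09, or -0.04 without those libraries, and MRPL33 was at -0.30 ± 0.10, or -0.19 without them. Of 21 genes of glycolysis and fermentation 1 was above 0, with a median of -0.09 that was -0.03 without them. TDH1, an isoform of glyceraldehyde-3-phosphate dehydrogenase, was at -0.29 ± 0.14, and TPI1, triose-phosphate isomerase, at -0.12 ± 0.07. The 34 proteasome genes had a median of -0.08 (-0.03 without both libraries), the 40 genes of the respiratory chain and ATP synthase -0.05 (-0.02) and the 24 chaperone genes of Hsf1, the heat-shock factor, -0.06 (-0.02). By contrast the 106 ribosome biogenesis genes had 49 above 0 and a median of -0.01. With the coding-length trend removed, the medians were -0.02 for mitochondrial ribosomal protein, -0.05 for proteasome and -0.03 for ribosome biogenesis genes. They were -0.09 for glycolysis and fermentation and -0.06 for Hsf1 chaperones. The median of the respiratory chain and ATP synthase turned in sign, to 0.006.

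Amino acid genes held no called member apart from HIS3. Of 54 other genes of amino acid synthesis under Gcn4, the transcription factor of amino acid starvation, 14 were above 0, with a median of -0.07 that was -0.04 without K467R 1 and K467N 2. ARG1, argininosuccinate synthetase, was at -0.16 ± 0.05 and BAT2, a branched-chain aminotransferase, at -0.17 ± 0.06. In sulfur assimilation and methionine synthesis 10 of 30 genes were above 0, with a median of -0.05, or -0.02 without them, and the leading members were MET17, O-acetylhomoserine sulfhydrylase, at -0.15 ± 0.04 and STR3, cystathionine beta-lyase, at -0.32 ± 0.11. MET17 overlaps another annotated gene. The 15 purine synthesis genes had a median of -0.01. With the coding-length trend removed, the medians were -0.09 for the Gcn4 genes, -0.05 for the sulfur and methionine genes and -0.03 for the purine genes.

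No sugar gene passed. The 9 tested genes of the galactose regulon had a median of 0.02, or 0.05 without K467R 1 and K467N 2, and GAL1, galactokinase, ranged from 7.62 to 11.6 CPM in K467N (median 9.79) and from 9.12 to 10.3 in K467R (median 9.74). GAL1 overlapped throughout, with a log2 difference of 0.01 ± 0.09, and GAL4, the activator of the regulon, was at 0.36 ± 0.14. Both GAL1 and GAL4 overlap other annotated genes. Of 10 hexose transporter and glucose sensor genes 8 were above 0, with a median of 0.11 that was 0.09 without K467R 1 and K467N 2, and HXT4, a glucose transporter, was at 0.30 ± 0.11.

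Mating genes gave no call. The 14 haploid pheromone response genes had a median of 0.04, with SST2, the regulator that ends pheromone signalling, at 0.23 ± 0.07. STE2 had a median of 491 CPM in K467N and 450 in K467R with a log2 difference of 0.21 ± 0.08, whereas MFA1, which encodes a-factor, was at -0.30 ± 0.16. The a-specific genes thus differed in sign among themselves. Without K467R 1 and K467N 2 the values were 0.14 for SST2, 0.12 for STE2 and -0.10 for MFA1. No marker gene other than HIS3 passed, with LEU2 of leucine synthesis at 0.08 ± 0.09 and URA3 of uracil synthesis at -0.19 ± 0.10.

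No gene of the remaining lists passed. The medians were 0.05 for 27 iron regulon genes, 0.04 for 25 phosphate genes, 0.03 for 26 ergosterol genes and 0.07 for 24 meiosis genes. Without K467R 1 and K467N 2 they were 0.04, 0.00, 0.02 and -0.004, so that the meiosis median turned in sign, and without K467R 3 the meiosis median was 0.03. The iron median was -0.004 without K467R 6 and 0.11 without K467R 3. They were 0.00 for 31 stress genes under Msn2 and Msn4, 18 inositol and phospholipid genes and 10 heme genes. Of the 39 lists reported, 32 had a median within 0.1 of 0, and only the histidine and strain marker lists held a called member, which was HIS3 in both.

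**Figure D5:**
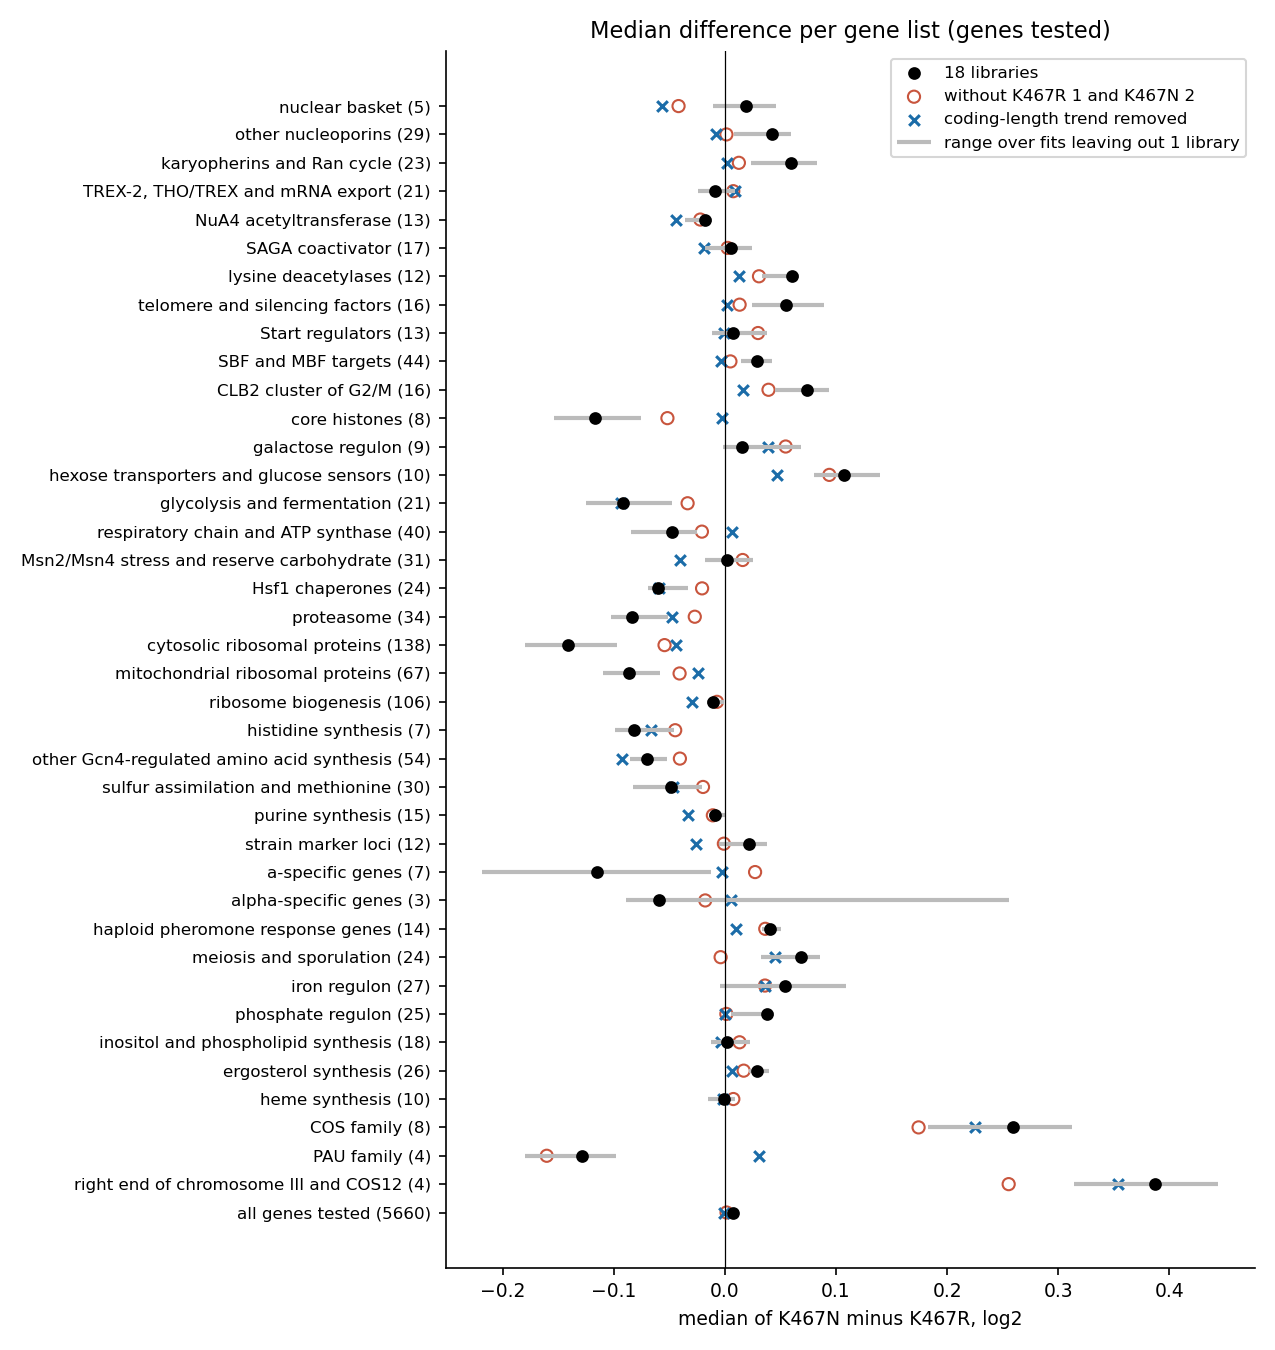
Median log2 difference between K467N and K467R for each of the 39 gene lists and for all genes, with the number of genes tested in brackets. Black points use all libraries, open circles leave out K467R 1 and K467N 2, crosses have the trend with coding length removed, and bars span the fits that leave out 1 library. The COS family median stays above 0 in the fits shown, and ribosomal protein genes move from -0.14 to -0.05 without the 2 libraries.

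The spread between these libraries set how closely the difference of each gene was estimated. The 95% interval of the difference lay wholly within 1.2-fold in either direction for 3402 genes (60.1%), within 1.5-fold for 5361 (94.7%) and within 2-fold for 5607 (99.1%). These intervals are per gene and not adjusted for their number. They measure only the spread between these libraries, which may be technical, so they do not bound the difference between the strains. Point estimates were at least 0.25 in size on the log2 scale for 291 genes, at least 0.5 for 26 and at least 1 for HIS3 alone.

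At an unadjusted p under 0.05 there were 635 genes (11.2%), 304 with K467N higher and 331 lower, beside 283 expected if no gene differed. With upper-quartile scaling in place of TMM the split was 372 higher and 226 lower. That count was 116 without both K467R 1 and K467N 2, 233 without K467N 2 and 273 without K467R 1. It was 320 without K467N 4 and 334 without K467R 5, but 1215 without K467N 5, 1202 without K467R 4 and 1110 without K467R 3. The number that passed the adjusted test was 1, HIS3, in every one of these fits. Each mutant against WT, comparisons that share the WT libraries, had 4 genes past the same edgeR test (0.0707% each).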

How the data were processed

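Poly(A) RNA of 3 yeast strains was sequenced as stranded TruSeq libraries from 600 ng of RNA with 12 PCR cycles, per the labels. The deposited values are whole-number counts of reads per gene, not normalized, made by the authors. The submitters' processing notes name STAR 2.5.3a, HTSeq 0.6.1p1 and bcl2fastq 2.20.0.422. Neither the genome build nor the strand setting of the counting is given in the sources used here. Reads that map to more than 1 place, 18.3 to 19.6% of reads per library, were not assigned, which lowers the counts of near-identical genes. Reads with no feature were 4.70 to 5.64%. These reads stayed out of library sizes and tests. Libraries held 12395725 to 19093010 gene counts and are numbered within a strain in order of accession. No pair of libraries agreed within sampling noise, since the chi-square per degree of freedom was 2.52 or more in 153 pairs. Of 7036 features 5956 matched a gene of the R64 annotation, from which chromosomes and coding lengths were taken.

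Counts were filtered with filterByExpr (5660 genes tested), scaled by TMM and fitted with edgeR 4.0.16 (glmQLFit, robust, glmQLFTest, two-sided) in R 4.3.3 over all 18 libraries with strain as the only term. P-values were adjusted by Benjamini-Hochberg over all tested genes with a threshold of 0.05. Positive differences mean higher in K467N. Intervals of differences come from the fit, and the HIS3 ratio has an exact Clopper-Pearson interval. Simulated counts had 50 genes changed per fold size in the K467N against K467R comparison. Of these, 54% were recovered at 1.2-fold, 86% at 1.5-fold, 98% at 2-fold and 100% at 4-fold, and 3.43% of 175 calls were false. The simulation drew each gene independently, without shifts shared by a whole library such as those of K467N 2 and K467R 1. With more calls than the real comparison, its adjusted threshold was also easier to pass. These rates therefore need not hold for the real libraries. Alternatives used DESeq2 1.42.0, limma 3.58.1, other scalings and filters, a removed coding-length trend and left-out libraries. Named genes are NUP60, HIS3 and its neighbours, genes past the test, the 12 next by p, the 2 members of smallest p of each list, and genes known from earlier results. The members and lists were chosen with earlier results of these data known. A list among them is not reported here.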

Additional observations from a re-analysis of the deposited data

Results flagged for a closer look

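HIS3 differed between the mutants in every library, with 7394 summed counts in K467N and 1 in K467R, a ratio of 6767. This is the difference reported above, and the marker gene differs between these strains.

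In 12 of 249 groups of 6 libraries checked, 1 library lay far from the other 5 by Dixon's ratio with a critical value of 0.625. Chance flags about 1 in 20 groups, or 12.45 here. Of these, 4 involved K467N 2. COS12 was highest there at 7.68 CPM, beside at most 5.67 in the other K467N libraries (0.687), and YLR152C was highest at 22.6 CPM (0.658). MOG1 was lowest at 29.8 CPM (0.635), and the inositol and phospholipid list was highest in summed CPM, at 0.249% of the TMM-scaled library size (0.777). For K467R 1, WHI5 was highest at 18.4 CPM (0.644), TPI1 at 5763 CPM (0.67) and SPT8 at 93.4 CPM (0.678). The TREX-2, THO and export list was also highest there, at 0.384% of the TMM-scaled library size (0.771), whereas ERG11 was lowest at 1055 CPM (0.646). The others were TRP1, highest in K467N 3 at 1.18 CPM (0.724), the alpha-specific list, lowest in K467N 5 at 0.00520% of the TMM-scaled library size (0.716), and SOL4, lowest in K467R 3 at 0.941 CPM (0.693).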

How the results depend on the processing

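HIS3 was the only gene past the test in all 23 alternatives, higher in K467N each time. No paired analysis was possible because the labels give the strains no shared replicate numbers. Of 85 other genes followed, 76 kept their direction in every alternative, none passed the adjusted test in any, and 9 reversed, 8 of them with a difference within 0.1 of 0 and STE3 at -0.19. With the coding-length trend removed the log2 differences were DED1 -0.0386, NUP1 -0.061, NUP2 -0.0566, MLP1 -0.0373, MLP2 -0.0561, WHI5 0.0148 and GAL1 -0.0286. Without K467R 1 and K467N 2 they were NUP2 -0.00653, MLP1 -0.0416, MLP2 -0.0815, WHI5 0.141 and GAL1 -0.0626. With limma-trend and array weights they were NUP2 -0.0367, MLP1 -0.0181, MLP2 -0.0438, WHI5 0.0865, GAL1 -0.0545 and STE3 0.278. NUP2 was at -0.000474 with DESeq2 size factors and -0.000302 in DESeq2, and GAL1 at -0.00743 in limma-voom. Over the fits leaving out 1 library the ranges were MRM1 -0.000321 to 0.0493, DED1 -0.0251 to 0.0544, NUP1 -0.00892 to 0.0457, NUP2 -0.0115 to 0.0233, MLP1 -0.0106 to 0.0907, MLP2 -0.0284 to 0.0746, WHI5 -0.0673 to 0.0824, GAL1 -0.0495 to 0.0689 and STE3 -0.343 to 0.256. The cause of these reversals was not tested. Depth limits genes of low level: the 95% interval of STE3, below 1 CPM in median, ran from -0.90 to 0.51 on the log2 scale.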
